A study of Rattus norvegicus with 9 samples.

Results

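The comparison described here set dorsal root ganglia (DRGs) of the CPIP+EA group against those of the Sham group, to ask which of the gene changes of the ischemia model were still measured after electroacupuncture (EA) and which were present with the treatment alone. It used 6 of the 9 libraries of the series directly, 3 CPIP+EA and 3 Sham, and the 3 CPIP libraries served as the untreated reference. All genes with a mean of at least 0.1 FPKM over the 9 libraries were members, 17187 of 20413 genes listed. All animals were male Sprague Dawley rats of 8 to 10 weeks. Sham, labelled Con, is the control. CPIP (chronic post-ischemic pain) rats had a tight O-ring around the right hind ankle for 3 h and then reperfusion, a model of complex regional pain syndrome type-I. Anesthesia was common to Sham and CPIP, and the Sham ring was cut, so ischemia separates these groups. CPIP+EA rats had the same ischemia plus 10 daily EA sessions with needles at the ST36 and BL60 acupoints of both hind limbs. The right, ipsilateral L4-6 DRGs were taken on day 10, and 3 rats of each group gave its 3 libraries. The groups hold no needled rats without current and no EA-treated Sham rats, so needling and current cannot be told apart in the CPIP+EA values.

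A DRG holds the cell bodies of the sensory neurons of a limb, wrapped by satellite glia, together with Schwann cells, vessels and resident macrophages. When a sensory axon is damaged, its cell body switches on a transcription program led by ATF3, JUN and SOX11, produces growth-associated cytoskeletal proteins, and starts to make neuropeptides that an intact neuron hardly makes, among them galanin, VIP and NPY. Several ion channel and receptor genes of the intact neuron are turned down in the same program. EA passes a weak current through needles in the limb and is used against pain.

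Values were FPKM, fragments of a gene scaled to its transcript length and to the mapped fragments of the library, so that levels of different genes could be set side by side per length. They carry no counts, so depth cannot be judged gene by gene, and precision rests on having 3 libraries per group. The 9 libraries had similar totals, with FPKM sums between 445647 and 482940 and between 18279 and 18456 genes above 0. Sensory neuron markers, among them Avil, Isl1 and Prph, summed to between 4303 and 5196 FPKM, and satellite glia markers to between 195 and 233 FPKM. Schwann cell markers varied more, at 6907 to 10967 FPKM in Sham, 6564 to 11743 in CPIP and then 4591 to 9139 in CPIP+EA, with the lowest sum in replicate 1 of CPIP+EA. Markers of spinal cord glia summed to at most 4.20 FPKM, while those of skeletal muscle ranged from 6.66 to 95.5 FPKM and were highest in replicate 2 of CPIP. The ganglion label was thus borne out by its markers in each library. In whole ganglia, fewer cells of a type and less RNA per cell cannot be told apart. Replicate 3 of CPIP+EA stood apart in blood cell genes: each of the 18 neutrophil and granulocyte genes tested was highest of all 9 libraries in it, as were 3497 of all 17187 genes. The total number of changed genes is therefore also given without it, while other counts include it.

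Against Sham, the CPIP+EA ganglia showed 83 differentially expressed genes (DEGs), of which 82 were higher and 1 was lower. A DEG had to pass an adjusted p under 0.01 in limma's moderated test on log2(FPKM + 0.5) and a fold change of at least 1.5. This was 0.483% of the 17187 genes tested, 0.477% in the higher and 0.00582% in the lower direction. The FPKM values of CPIP+EA and Sham did not overlap for any of the 83, which the threshold on these same libraries largely ensures. Over all genes, 8.87% had all CPIP+EA values above all Sham values and 7.32% had them below. The median log2 difference over all genes was 0.00, which the scaling of FPKM to each library's total largely fixes. At an unadjusted p under 0.05 the directions were closer, with 1132 genes higher and 968 lower. Without replicate 3 of CPIP+EA, 70 DEGs were found, of which 1 was lower. Without replicate 2 of the same group there were 35, so the number depended on which libraries entered.

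The changes were large for genes that sham ganglia barely expressed. Of the 83 DEGs, 22 were at least 4-fold higher by the fitted difference, 30 between 2-fold and 4-fold and 30 higher by less than 2-fold. A mean under 1 FPKM in Sham was found for 31 of them. At the other end, 40 had a mean over 10 FPKM in CPIP+EA. Because 0.5 FPKM was added before the logarithm, the log2 differences of the low genes understate their change.

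**Figure D1:**
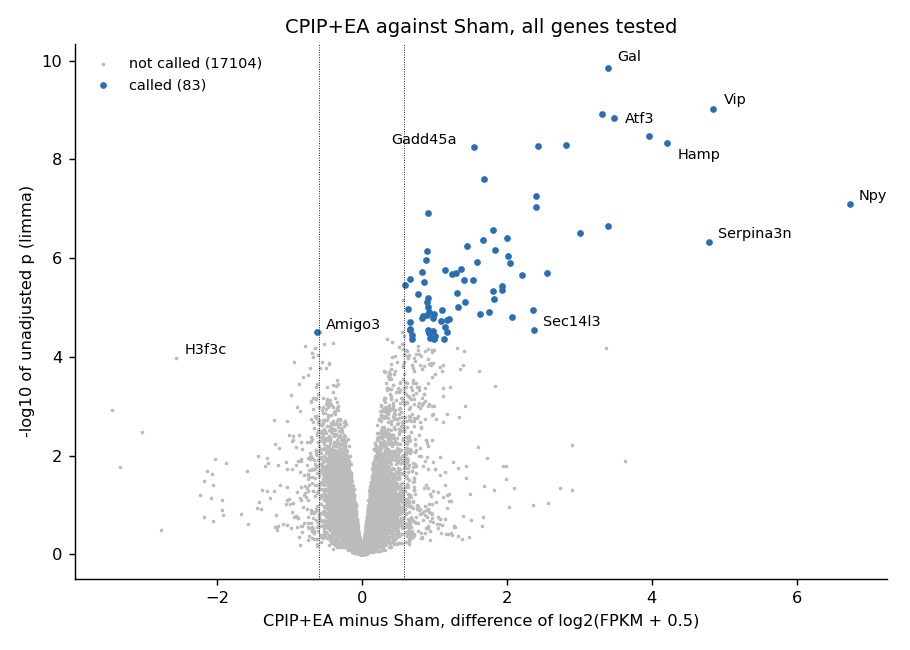
Difference between CPIP+EA and Sham on the log2(FPKM + 0.5) scale (horizontal) against -log10 of the unadjusted limma p (vertical), 1 point per gene, with DEGs in blue and dotted lines at 1.5-fold. The 82 higher DEGs reach up to 6.74 for Npy, and Amigo3 at -0.62 is the single lower one.

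Neuropeptide Y (Npy), a peptide of sympathetic neurons that sensory neurons make after injury, had the largest difference. Its FPKM was 3.92, 7.09 and 1.14 in Sham, 351.29, 365.95 and 395.27 in CPIP and then 396.31, 405.42 and 413.63 in CPIP+EA. All 3 treated libraries lay above all untreated CPIP libraries, and both sets were far above Sham. Over all genes tested, 4.84% had all CPIP+EA values above all CPIP values and 3.4% had them below. The log2 difference to Sham was 6.74 ± 0.43 (SE, n = 3 per group, limma adjusted p = 0.000114). Against CPIP the difference was 0.13 ± 0.43 (limma adjusted p = 0.996).

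Vasoactive intestinal peptide (Vip), a vasodilator neuropeptide, was nearly absent in Sham, at 0.24, 0.12 and 0.08 FPKM. It measured 13.03, 10.36 and 17.00 FPKM in CPIP and 21.81, 16.63 and 15.90 FPKM in CPIP+EA. The treated values overlapped the untreated ones and not the Sham ones. The log2 difference to Sham was 4.84 ± 0.19 (SE, n = 3 per group, limma adjusted p = 6.18e-06), and that to CPIP was 0.43 ± 0.19 (adjusted p = 0.996). Galanin (Gal), a peptide that modulates pain transmission in the dorsal horn, gave 4.66, 5.32 and 5.40 FPKM in Sham, 37.03, 41.00 and 48.14 in CPIP and then 62.97, 60.37 and 52.86 in CPIP+EA. The 3 groups did not overlap for galanin, and the treated ganglia held the highest values. With 3.39 ± 0.11 (SE, n = 3 per group), Gal had the smallest adjusted p of all genes against Sham (limma, 2.45e-06). Its step from CPIP to CPIP+EA was 0.48 ± 0.11, with an unadjusted limma p of 0.0015 that did not pass the adjustment over all genes (adjusted p = 0.969).

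Atf3, the stress-induced transcription factor that marks neurons with a damaged axon, measured 4.77, 6.86 and 5.37 FPKM in Sham. In CPIP it was 55.88, 50.51 and 61.58 FPKM, and in CPIP+EA 72.86, 74.87 and 57.37 FPKM. Replicate 3 of CPIP+EA lay within the CPIP range and the other two above it. The log2 difference to Sham was 3.49 ± 0.14 (SE, n = 3 per group, limma adjusted p = 6.18e-06), and that to CPIP 0.28 ± 0.14 (adjusted p = 0.996). Npy, Vip, Gal and Atf3 were thus far above the Sham level after 10 EA sessions, and the fitted difference to untreated CPIP rats was above 0 for each of them. All 4 genes passed the DEG threshold against Sham in each of 20 refits with another setting or with 1 library left out.

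**Figure D2:**
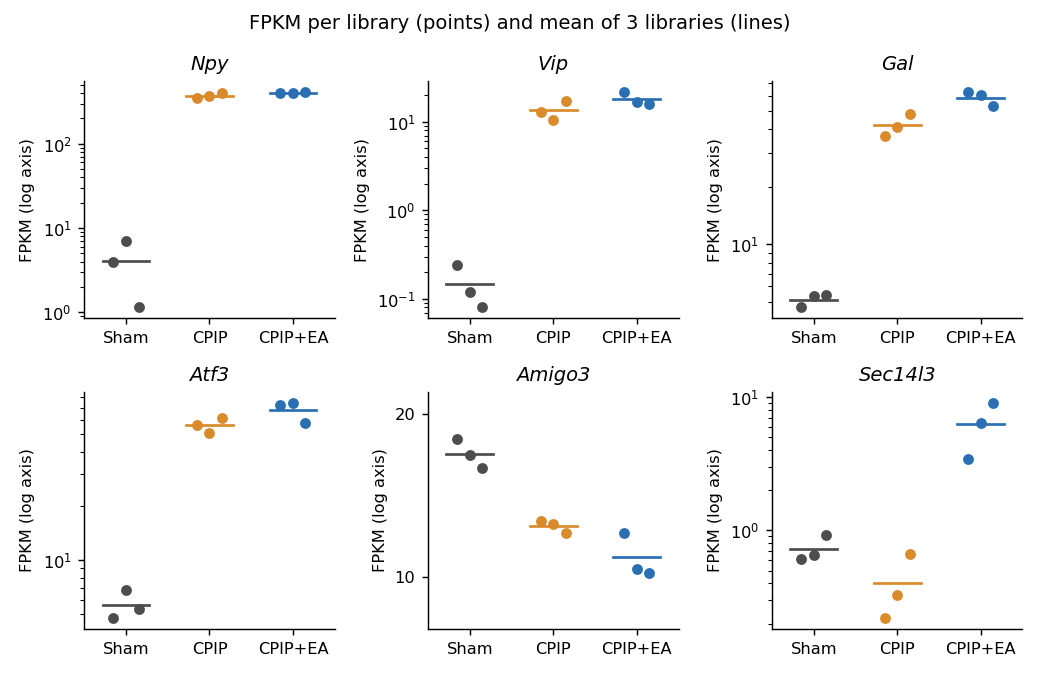
FPKM (log axis) of Npy, Vip, Gal, Atf3, Amigo3 and Sec14l3 in each library of Sham, CPIP and CPIP+EA, with lines at the mean of 3 libraries. Npy, Vip, Gal and Atf3 are high with and without EA, Amigo3 is lowest in CPIP+EA, and Sec14l3 is high in CPIP+EA alone, between 3.43 and 9.08 FPKM.

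Next after Npy and Vip came genes of other kinds. Serpina3n, a secreted serine protease inhibitor of the acute phase, was 1.61, 0.38 and 0.45 FPKM in Sham and 33.51, 40.51 and 26.56 FPKM in CPIP+EA, where untreated CPIP ganglia gave 28.84, 59.33 and 27.81 FPKM. Its log2 difference to Sham was 4.80 ± 0.38 (SE, n = 3 per group, limma adjusted p = 0.000396). Hamp, which encodes the iron-regulating hormone hepcidin, was listed at 0 in 2 Sham libraries and at 0.18 in the third, against 10.05, 11.92 and 7.65 FPKM in CPIP+EA and 9.21, 13.15 and 11.09 FPKM in CPIP. Treated and untreated values of both genes overlapped. Stac2, an adaptor of voltage-gated calcium channels, went from 0.46, 0.55 and 0.24 FPKM in Sham to 17.48, 12.84 and 11.20 FPKM in CPIP+EA (CPIP 12.60, 13.22 and 14.74). The log2 difference between treated and untreated ganglia was -0.17 ± 0.20 for Hamp and 0.01 ± 0.18 for Stac2, both with a limma adjusted p of at least 0.996.

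The rest of the 15 largest rises ran from 3.39 to 2.40 on the log2 scale. Csrp3, a LIM-domain protein of striated muscle that binds actin, had 0.44, 0.46 and 0.37 FPKM in Sham, 5.28, 3.43 and 7.02 in CPIP and then 12.51, 8.28 and 7.49 in CPIP+EA. All treated values lay above the untreated ones, and the step from CPIP to CPIP+EA was 0.81 ± 0.25 (SE, n = 3 per group, limma adjusted p = 0.996). The skeletal muscle list held no DEG among 17 genes, with a median log2 difference of 0.72 to Sham. Its summed level over all 18 listed genes was 45.2, 40.8 and 36.0 FPKM in Sham, 66.5, 218 and 32.8 in CPIP and then 42.8, 92.8 and 79.1 in CPIP+EA. The part of muscle in the Csrp3 values was not tested. Crisp1, a cysteine-rich secretory protein known from the epididymis, rose from 0.12, 0.12 and 0.08 FPKM to 5.36, 5.68 and 5.48 FPKM, with 2.90, 3.76 and 4.28 FPKM in CPIP. Its treated values also lay fully above those of untreated ganglia, as for 4.84% of all genes, by 0.55 ± 0.13 (SE, limma adjusted p = 0.996).

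Reg3b, a secreted C-type lectin of injured tissue, went the other way relative to CPIP. It measured 1.36, 0.88 and 0.73 FPKM in Sham, 16.04, 13.38 and 14.93 in CPIP and then 7.73, 13.23 and 14.14 in CPIP+EA, with a log2 difference to Sham of 3.01 ± 0.23 and to CPIP of -0.37 ± 0.23 (SE, n = 3 per group, limma adjusted p = 0.000314 and 0.996). Replicate 1 of CPIP+EA lay far below the CPIP range and replicate 3 within it. The other members of the group were Sprr1a (2.81), a small proline-rich protein linked to axon growth, the receptor phosphatase gene Ptprh (2.56), the phosphodiesterase subunit gene Pde6b (2.43), the transcription cofactor gene Ankrd1 (2.41) and the transglutaminase gene Tgm1 (2.40). For these 5 genes the log2 difference between CPIP+EA and CPIP ranged from 0.06 for Sprr1a to 0.27 for Ankrd1, each less than 2 standard errors from 0 and none with an adjusted p below 0.996 in limma. The treated Ankrd1 values, 2.93, 2.79 and 2.59 FPKM, lay above the highest CPIP value of 2.38 FPKM, and those of the others overlapped CPIP.

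**Figure D3:**
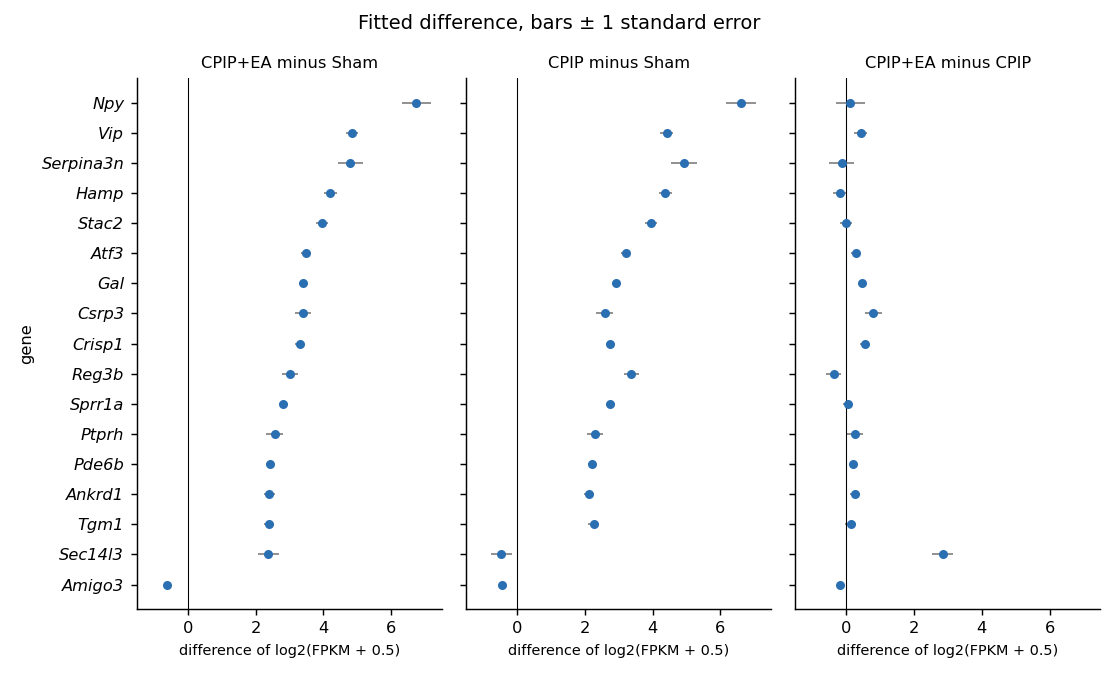
Fitted differences of log2(FPKM + 0.5) with bars of 1 standard error (n = 3 libraries per group) for the 16 DEGs with the largest rise and Amigo3, in 3 panels for CPIP+EA minus Sham, CPIP minus Sham and CPIP+EA minus CPIP. The left and middle panels share the Sham libraries. In the right panel Sec14l3 stands at 2.85 and the other genes between -0.37 and 0.81.

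Across the 19 neuropeptide genes tested, 6 were DEGs against Sham and all 6 were higher, namely Npy, Vip, Gal, Ucn, Nts and Adcyap1 (31.6%, against 0.483% of all genes). As with all 23 gene lists, members were chosen with earlier results of these data known. Such shares of DEGs are descriptions. Npy, Vip, Gal and Ucn were DEGs in all 9 fits that each left out 1 library, but Nts and Adcyap1 in 2 of them. In CPIP against Sham, which uses the same Sham libraries, 5 of the 19 were DEGs, beside 0.355% of all genes. The median log2 difference of the list was 0.33 in CPIP+EA against Sham, beside 0.00 over all genes. Urocortin (Ucn), a stress peptide of the corticotropin-releasing hormone family, had 0.11, 0.11 and 0.00 FPKM in Sham and 2.84, 1.54 and 2.22 FPKM in CPIP+EA. Neurotensin (Nts) had 0.70, 0.94 and 0.80 FPKM in Sham and 2.42, 2.35 and 2.61 FPKM in CPIP+EA. Both lay within the CPIP range or overlapped it, at 1.54 to 2.55 FPKM for Ucn and 1.97 to 2.98 FPKM for Nts. Adcyap1, which encodes the neuropeptide PACAP, was already expressed in Sham at 24.52, 23.11 and 21.13 FPKM and reached 57.24, 42.85 and 38.90 FPKM in CPIP+EA, a log2 difference of 0.98 ± 0.13 (SE, n = 3 per group, limma adjusted p = 0.00683).

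The abundant pain peptides of the intact ganglion did not pass. Here and in the lists that follow, members that were not DEGs were named for their abundance or, as with Tac1, Penk and Npy2r, after their values were seen. Calca, which encodes CGRP, measured 731.16, 621.88 and 871.78 FPKM in Sham and 752.22, 771.43 and 578.93 FPKM in CPIP+EA. Tac1, which encodes substance P, gave 236.96, 221.35 and 254.84 FPKM against 218.46, 228.24 and 189.71 FPKM. Both overlapped between the groups, with log2 differences of -0.08 ± 0.17 and -0.17 ± 0.10 (SE, n = 3 per group). The opioid peptide gene Penk had the lowest difference of the list. It gave 2.26, 3.34 and 4.55 FPKM in Sham and 1.18, 1.05 and 1.87 FPKM in CPIP+EA, which did not overlap, with a difference of -1.04 ± 0.24 and a limma adjusted p of 0.0896. Of the 18 receptor genes for these peptides, 1 was a DEG (5.56%, against 0.483% of all genes). This was Cckbr, a receptor for cholecystokinin and gastrin, with 0.39, 0.08 and 0.37 FPKM in Sham, 2.57, 3.51 and 3.58 in CPIP and then 3.00, 3.61 and 1.79 in CPIP+EA. Npy1r, a receptor for Npy and the most abundant of the list, overlapped between the groups at 15.95, 14.53 and 12.71 FPKM in Sham and 16.55, 16.42 and 13.38 FPKM in CPIP+EA. Npy2r, another, gave 5.01, 3.07 and 3.06 FPKM in Sham and 8.51, 9.26 and 5.47 in CPIP+EA without overlap (log2 difference 0.97 ± 0.22, limma adjusted p = 0.0783). The receptor list had a median difference of 0.00, and its DEG Cckbr passed in 3 of the 9 fits that left out a library.

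Among 21 injury-linked transcription factors, 4 were DEGs and all were higher: Atf3, Sox11, Jun and Smad1 (19.0%, against 0.483% of all genes). In the 9 fits that each left out 1 library, Atf3 was a DEG in 9, Sox11 in 6, Jun in 2 and Smad1 in 1. Sox11, a factor of developing and regrowing neurons, had 1.69, 1.49 and 1.52 FPKM in Sham and 8.46, 8.03 and 5.99 FPKM in CPIP+EA, a log2 difference of 1.94 ± 0.20 (SE, n = 3 per group, limma adjusted p = 0.00158). Jun, the AP-1 subunit that partners ATF3, gave 25.78, 24.00 and 19.81 FPKM against 48.99, 40.24 and 41.70 FPKM. Smad1, which relays bone morphogenetic protein signals, moved by 0.67 ± 0.09. The step from CPIP to CPIP+EA was 0.05 ± 0.20 for Sox11, 0.05 ± 0.11 for Jun and 0.08 ± 0.09 for Smad1. The most abundant factors of the list, Atf4 and Atf5, differed from Sham by 0.04 and 0.10, with overlapping values. Among members named after their values were seen, Egr1 measured 10.92, 10.82 and 10.95 FPKM in Sham but 21.62, 4.25 and 4.24 FPKM in CPIP+EA, and Fosb 4.69, 0.50 and 0.52 FPKM in CPIP+EA, with replicate 1 the highest of its group for both (Sham 0.92 to 1.82 FPKM for Fosb).

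The regeneration effectors, genes whose products rebuild the axon, restrain its growth or signal from injured neurons, held the largest share of DEGs. This list too was chosen with earlier results of these data known. Its members Nts and Cacna2d1 are also counted in the neuropeptide and the calcium channel list. Of 32 tested, 15 were higher and 1 lower (over all genes 0.483% were DEGs), with a median log2 difference of 0.92. All CPIP+EA values were above all Sham values for 23 of the 32, beside 8.87% of all genes. In the comparison of CPIP with the same Sham libraries, 13 of the 32 were DEGs (0.355% of all genes) and the median was 0.74. Gap43, the classical growth-cone protein, measured 135.83, 124.75 and 139.34 FPKM in Sham, 287.34, 269.65 and 335.96 in CPIP and then 330.56, 355.18 and 269.40 in CPIP+EA. The growth arrest gene Gadd45a, induced by DNA damage and axon injury, had very tight groups, at 20.10, 22.14 and 20.56 FPKM in Sham and 65.94, 63.15 and 57.69 FPKM in CPIP+EA. Its log2 difference was 1.55 ± 0.07 (SE, n = 3 per group, limma adjusted p = 1.09e-05).

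Other DEGs of this list were higher too, apart from Amigo3, which is described further on. Stmn4, a stathmin that regulates microtubules, rose by 1.68 ± 0.09, and the beta-tubulin gene Tubb6 by 0.92 ± 0.12 (SE, n = 3 per group, limma adjusted p = 4.2e-05 and 0.00719). Flrt3, a leucine-rich adhesion protein, went from 7.49, 6.12 and 6.52 FPKM in Sham to 28.37, 25.67 and 20.95 FPKM in CPIP+EA. Ecel1, a neuronal membrane peptidase induced by axotomy, had 1.10, 1.08 and 0.91 FPKM against 6.13, 7.06 and 4.15 FPKM. Vgf, a precursor of secreted peptides, rose by 1.33 ± 0.15. With 1 library left out, Stmn4, Flrt3 and Ecel1 were DEGs in all 9 fits, Vgf in 5 and Tubb6 in 1. Csf1, a cytokine by which injured sensory neurons act on microglia, measured 6.41, 6.46 and 6.35 FPKM in Sham, 13.30, 14.04 and 13.70 in CPIP and then 13.10, 12.56 and 12.04 in CPIP+EA. Every treated value of Csf1 lay below every CPIP value, as for 3.4% of all genes, with a log2 difference of -0.12 ± 0.06. Its rise over Sham was 0.92 ± 0.06 (limma adjusted p = 0.996 against CPIP and 0.000147 against Sham).

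The most abundant member of the list, the galectin gene Lgals1, overlapped between the groups, with a log2 difference of 0.11 (limma adjusted p = 0.734). Some other members came close without being DEGs and were named after their values were seen. Tubb2b gave 234.82, 231.52 and 221.68 FPKM in Sham and 521.95, 490.43 and 356.00 in CPIP+EA, with a limma adjusted p of 0.0121. Hspb1, a small heat shock protein that protects injured neurons, gave 205.66, 198.57 and 180.78 FPKM against 385.45, 398.44 and 326.06 FPKM (adjusted p = 0.0119). The interleukin-6 gene Il6 stayed low, at most 0.06 FPKM in Sham and 0.53, 0.83 and 0.95 FPKM in CPIP+EA, with 0.12, 0.36 and 0.66 FPKM in CPIP (adjusted p = 0.0359 against Sham). None of the 3 genes overlapped between CPIP+EA and Sham.

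**Figure D4:**
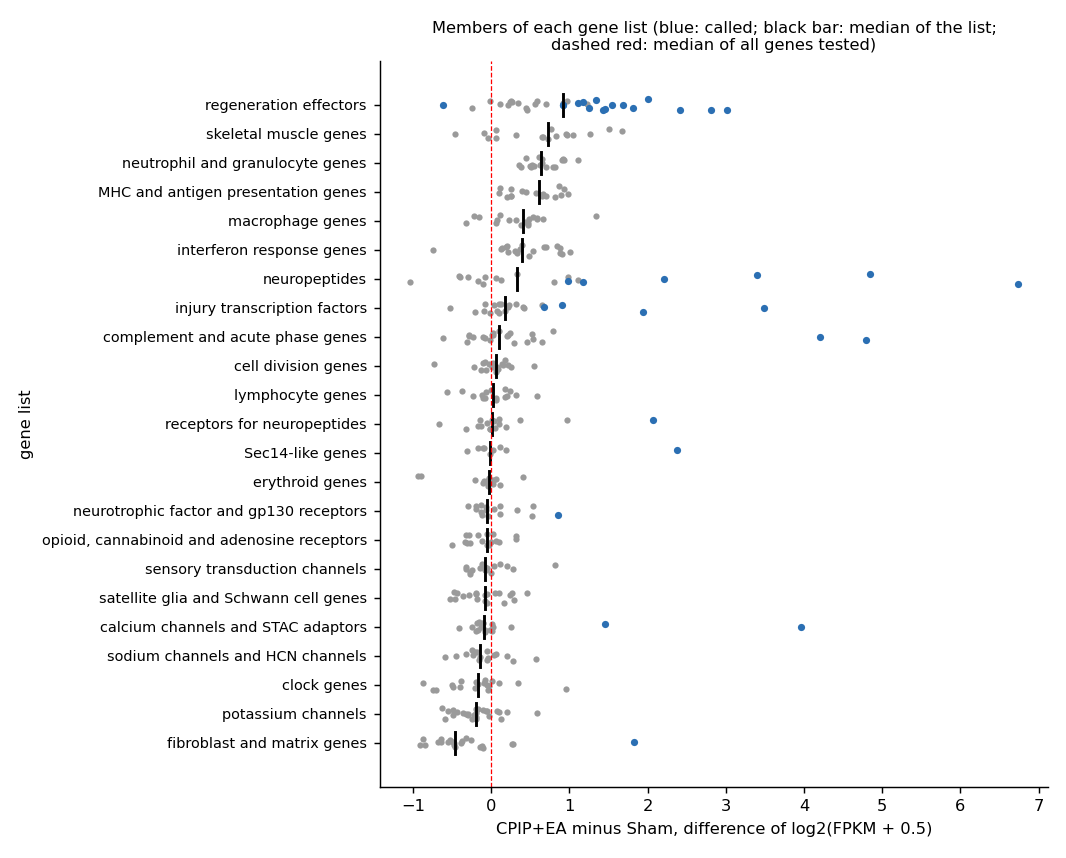
Differences of log2(FPKM + 0.5) between CPIP+EA and Sham (horizontal) for the members of 23 gene lists (vertical, sorted by the median of the list), with DEGs in blue, the list's median as a black bar and the median of all genes as a dashed line. The regeneration effectors have the highest median, 0.92, and the fibroblast and matrix genes the lowest, -0.47.

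Promoter sequences are shown for Npy, Vip, Gal and Sec14l3 as marker genes, and for Sprr1a, Hamp, Ucn and Vgf because their windows hold a searched motif. Each run covers 250 bases before and 50 bases after the annotated start, 5′ to 3′ on the strand of the gene, from RefSeq on the GRCr8 assembly, and 64 of the 83 DEGs and 13061 of the tested genes had an entry. Capitals mark the AP-1 motif (TGACTCA or TGAGTCA), bound by JUN with FOS or ATF proteins, or the cAMP response element, CRE (TGACGTCA). Both strands were searched, and these letters do not overlap each other. The windows lie at chr4:80211861-80212160 (plus strand) for Npy, chr1:44470230-44470529 (plus strand) for Vip, chr1:210084523-210084822 (minus strand) for Gal and chr14:83168008-83168307 (plus strand) for Sec14l3, none of which held these letters. They lie at chr2:180752576-180752875 (minus strand) for Sprr1a, chr1:95300222-95300521 (minus strand) for Hamp, chr6:30957836-30958135 (plus strand) for Ucn and chr12:25276971-25277270 (minus strand) for Vgf.
Npy: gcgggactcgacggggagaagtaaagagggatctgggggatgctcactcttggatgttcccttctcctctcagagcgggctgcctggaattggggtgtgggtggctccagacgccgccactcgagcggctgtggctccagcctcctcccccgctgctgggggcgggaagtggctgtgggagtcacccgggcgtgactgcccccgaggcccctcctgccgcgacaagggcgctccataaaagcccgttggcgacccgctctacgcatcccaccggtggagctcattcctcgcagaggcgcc
Vip: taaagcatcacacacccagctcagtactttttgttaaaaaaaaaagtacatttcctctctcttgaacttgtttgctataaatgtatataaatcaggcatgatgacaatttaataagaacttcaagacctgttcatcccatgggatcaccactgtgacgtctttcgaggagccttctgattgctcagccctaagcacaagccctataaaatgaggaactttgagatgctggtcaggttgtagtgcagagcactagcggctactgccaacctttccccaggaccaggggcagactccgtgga
Gal: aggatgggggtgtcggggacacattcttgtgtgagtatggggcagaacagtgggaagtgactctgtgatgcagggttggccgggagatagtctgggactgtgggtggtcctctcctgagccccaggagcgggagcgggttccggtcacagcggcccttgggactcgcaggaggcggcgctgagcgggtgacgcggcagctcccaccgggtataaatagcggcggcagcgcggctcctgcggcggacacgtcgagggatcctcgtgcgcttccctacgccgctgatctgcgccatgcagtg
Sec14l3: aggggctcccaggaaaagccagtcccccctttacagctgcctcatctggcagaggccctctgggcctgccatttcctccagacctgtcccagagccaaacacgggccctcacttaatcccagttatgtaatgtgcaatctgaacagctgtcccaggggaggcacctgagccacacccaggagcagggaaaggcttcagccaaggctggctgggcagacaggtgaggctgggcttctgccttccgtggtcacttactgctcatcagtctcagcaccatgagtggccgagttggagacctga
Sprr1a: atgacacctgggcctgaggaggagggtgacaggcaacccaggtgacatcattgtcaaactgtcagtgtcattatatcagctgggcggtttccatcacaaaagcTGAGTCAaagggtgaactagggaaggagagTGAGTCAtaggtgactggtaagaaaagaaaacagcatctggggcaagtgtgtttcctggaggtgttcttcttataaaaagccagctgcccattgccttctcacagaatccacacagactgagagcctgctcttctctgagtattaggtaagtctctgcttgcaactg
Hamp: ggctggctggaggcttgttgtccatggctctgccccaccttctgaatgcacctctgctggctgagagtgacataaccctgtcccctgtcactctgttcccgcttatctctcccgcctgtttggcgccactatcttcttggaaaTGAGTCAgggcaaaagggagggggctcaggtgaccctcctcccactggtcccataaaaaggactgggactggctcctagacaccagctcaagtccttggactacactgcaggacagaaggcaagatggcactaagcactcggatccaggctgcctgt
Ucn: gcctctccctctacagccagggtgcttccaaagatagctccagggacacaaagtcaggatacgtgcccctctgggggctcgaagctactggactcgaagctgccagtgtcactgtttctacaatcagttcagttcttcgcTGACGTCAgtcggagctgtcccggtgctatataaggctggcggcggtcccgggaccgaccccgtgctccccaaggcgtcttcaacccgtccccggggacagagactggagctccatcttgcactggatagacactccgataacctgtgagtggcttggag
Vgf: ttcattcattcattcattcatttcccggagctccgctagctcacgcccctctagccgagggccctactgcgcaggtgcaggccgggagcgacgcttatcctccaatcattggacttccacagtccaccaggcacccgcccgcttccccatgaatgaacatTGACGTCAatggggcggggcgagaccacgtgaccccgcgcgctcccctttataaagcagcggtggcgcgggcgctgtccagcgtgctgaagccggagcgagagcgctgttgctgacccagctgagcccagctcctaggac

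Sprr1a held 2 AP-1 motifs, with their leading bases 147 and 117 bases before the start, and Hamp held 1, at 107 bases. Ucn and Vgf each held a CRE, at 110 and 90 bases before the start. Over the 64 DEGs with a sequence, the AP-1 letters were found in 10 (15.6%), which were Cidec, Cryba2, Hamp, Hpd, Mmp3, Nts, Parp3, Pde6b, Sprr1a and Vtcn1, and in 3.68% of all tested genes with a sequence. The CRE was found in 3 (4.69%), Cldn7, Ucn and Vgf, beside 2.90% of all. A STAT motif (TTCCNGGAA) was found in none of the 64, beside 1.24% of all. These shares are descriptions of the letters in a short window and were not tested.

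Of the ion channel lists drawn up, covering calcium, potassium, sodium and HCN, and sensory transduction channels, only the calcium channel list held a DEG. Outside them, and named after their values were seen, the DEGs included Gabra5, a GABA-A receptor channel subunit, with 3.05, 3.73 and 3.20 FPKM in Sham and 10.22, 14.17 and 10.90 in CPIP+EA (limma adjusted p = 0.000396). Chrna1, a nicotinic receptor channel subunit, had 2.39, 2.41 and 2.61 FPKM in Sham and 5.02, 5.58 and 7.01 in CPIP+EA (limma adjusted p = 0.00487), and it passed in 3 of the 9 fits that left out a library. The CPIP+EA values of both lay above all Sham values and overlapped those of CPIP. Cacna2d1, which encodes the alpha2delta-1 subunit bound by gabapentin, had 27.02, 28.54 and 28.12 FPKM in Sham, 69.60, 61.81 and 79.69 in CPIP and then 83.98, 84.24 and 64.93 in CPIP+EA. The treated and untreated values overlapped, and the difference to Sham was 1.45 ± 0.12 (SE, n = 3 per group, limma adjusted p = 0.000456). With Stac2 it made 2 DEGs of 18 (11.1%, against 0.483% of all genes) in a list whose median was -0.09. Of 26 potassium channel genes none was a DEG, but the median was -0.20, 9 had an unadjusted limma p under 0.05 in the lower direction and 1 in the higher (968 and 1132 of 17187 over all genes), and 9 had all CPIP+EA values below all Sham values, beside 7.32% of all genes. Kcna2, a Kv1 channel of the axon, gave 93.94, 96.32 and 88.00 FPKM in Sham, 75.25, 70.69 and 73.11 in CPIP and then 72.58, 77.82 and 71.16 in CPIP+EA, a difference of -0.33 ± 0.06 (adjusted p = 0.0334). The calcium-activated channel subunit gene Kcnmb4 differed the other way, at 0.58 ± 0.09 (adjusted p = 0.0169).

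None of the 17 sodium and HCN channel genes passed (median -0.14). Scn10a, the Nav1.8 channel of nociceptors, gave 71.52, 70.28 and 62.32 FPKM in Sham and 56.22, 49.36 and 32.81 FPKM in CPIP+EA, without overlap and with a limma adjusted p of 0.173. Among 19 sensory transduction channels there was no DEG either, and Trpv1 and Trpa1 overlapped between the groups. The ATP receptor gene P2rx2 came nearest, with 3.15, 3.01 and 3.15 FPKM in Sham and 6.67, 6.13 and 4.83 in CPIP+EA (log2 difference 0.81 ± 0.12, adjusted p = 0.014). The 17 opioid, cannabinoid, adenosine and monoamine receptor genes, on which endogenous and drug analgesia act, had no DEG and a median of -0.06. The mu opioid receptor gene Oprm1 ranged from 1.96 to 5.10 FPKM in Sham and from 1.49 to 4.32 FPKM in CPIP+EA, and Gabbr1, the GABA-B receptor subunit most abundant in the list, overlapped at 113.07 to 121.52 and 108.01 to 122.03 FPKM. Of 16 trophic factor and gp130 receptor genes, Gfra1, the GDNF co-receptor, was the sole DEG (6.25%, against 0.483% of all genes), at 52.11, 47.34 and 38.62 FPKM in Sham, 81.27, 84.64 and 83.94 in CPIP and then 84.72, 86.63 and 76.93 in CPIP+EA, and it passed in 4 of the 9 fits that left out a library.

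The glial and blood cell lists described next held no DEG, which at a share of 0.483% over all genes says little for lists of this size. The 20 satellite glia and Schwann cell genes had a median of -0.08. The list of 18 neutrophil and granulocyte genes had a median of 0.64, with 18 of 18 fitted differences above 0 and none at an unadjusted limma p under 0.05. Its summed level over all 19 listed genes was 86.0 to 352 FPKM in Sham, 58.7 to 400 FPKM in CPIP and 106 to 990 FPKM in CPIP+EA. The 990 FPKM belonged to replicate 3, while replicates 1 and 2 at 106 and 276 FPKM lay inside the Sham range. S100a8, an abundant neutrophil protein gene, measured 20.39, 56.64 and 44.66 FPKM in Sham and 23.70, 64.81 and 238.43 FPKM in CPIP+EA. The sum of the erythroid genes, red cell markers, also peaked in replicate 3 of CPIP+EA. It was 6331 FPKM there, against 809 and 2557 FPKM in replicates 1 and 2 and 1400 to 4334 FPKM in Sham. The list median was -0.03, and replicate 3 was the highest of the 9 libraries for 6 of the 15 genes. All 23 lists were chosen with earlier results of these data known. The neutrophil, erythroid, MHC, muscle and matrix lists also hold genes that the study picked on these libraries. The direction of a list is therefore not independent evidence. The part of blood content in these differences was not tested.

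Macrophage genes (18, median 0.40), interferon response genes (19, median 0.39) and MHC and antigen presentation genes (18, median 0.61) had no DEG, and replicate 3 of CPIP+EA was the highest of the 9 libraries for 13, 16 and 11 of them. For 7 of the 18 MHC genes all CPIP+EA values were above all Sham values, beside 8.87% of all genes. The class II gene RT1-Da, which presents antigen on macrophages and B cells, gave 35.64, 35.51 and 33.49 FPKM in Sham, 46.01, 78.76 and 86.66 in CPIP and then 65.78, 55.40 and 65.06 in CPIP+EA. These treated values were close together and did not peak in replicate 3, with a log2 difference of 0.82 ± 0.20 (SE, n = 3 per group, limma adjusted p = 0.109). The class I gene RT1-A1 was above Sham without overlap and overlapped CPIP, at 32.82 to 35.54 FPKM in Sham, 23.66 to 47.77 in CPIP and then 46.17 to 74.85 in CPIP+EA. Genes of the RT1 family are near copies of each other, so reads may have been shared among them. The lymphocyte list (16, median 0.02) and the cell division list (20, median 0.06) had no DEG. In the complement and acute phase list (23), the 2 DEGs were Serpina3n and Hamp (8.70%, against 0.483% of all genes), and replicate 3 of CPIP+EA was the highest library for 18 of the 23.

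Fibroblast and matrix genes had the lowest median of the 23 lists, -0.47 over 22 genes. The only DEG among them (4.55%, against 0.483% of all genes), Mmp3, a matrix-degrading protease, was higher, with at most 0.07 FPKM in Sham and 0.89, 1.47 and 1.98 FPKM in CPIP+EA (at most 1.31 FPKM in CPIP), and it passed in 5 of the 9 fits that left out a library. In the lower direction an unadjusted limma p under 0.05 was found for 12 of the 22 (968 of 17187 over all genes), and 9 had all CPIP+EA values below all Sham values (7.32% of all genes), but the smallest adjusted p among these was 0.0811. Col4a1, the basement membrane collagen, gave 40.17, 43.20 and 40.39 FPKM in Sham, 44.03, 43.54 and 34.02 in CPIP and then 29.71, 26.88 and 32.46 in CPIP+EA. The CPIP+EA values lay below both other groups, and 3.4% of all genes had them below CPIP. The log2 difference was -0.47 ± 0.11 to Sham and -0.44 ± 0.11 to CPIP (SE, n = 3 per group, limma adjusted p = 0.0811 and 0.996). Replicate 3 of CPIP+EA stood apart in this list too. Summed levels were 1719 and 1705 FPKM in replicates 1 and 2 and 2710 FPKM in replicate 3, against 2171 to 2593 FPKM in Sham.

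The single lower DEG was Amigo3, a leucine-rich membrane protein that restrains axon growth. Its FPKM was 18.02, 16.79 and 15.87 in Sham, 12.70, 12.51 and 12.05 in CPIP and then 12.06, 10.33 and 10.17 in CPIP+EA. All treated values were below all Sham values, and replicate 1 of CPIP+EA reached the lowest CPIP value. The log2 difference to Sham was -0.62 ± 0.08 (SE, n = 3 per group, limma adjusted p = 0.00694), that of CPIP to the same Sham libraries -0.43 ± 0.08 (adjusted p = 0.0566) and that between CPIP+EA and CPIP -0.19 ± 0.08 (unadjusted p = 0.0435, adjusted p = 0.996). Amigo3 lost the DEG call against Sham in 8 of the 9 fits that left out a library, with adjusted p up to 0.039. The exception was the fit without replicate 1 of CPIP+EA, at 0.00543. The call was also lost with quantile normalization, the TPM scale, median centring, no variance trend, the replicate block and the 2 groups alone (adjusted p = 0.0119 to 0.0392), so that it held in 6 of 20 refits.

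A further 15 genes were lower at an adjusted p between 0.01 and 0.05 and at least 1.5-fold, beside 65 higher ones. The genes named from these 15 were chosen after their values were seen, apart from H3f3c and Dbp. Mrgprx1, an itch receptor of the Mas-related family, gave 20.49, 18.08 and 13.65 FPKM in Sham, 11.18, 8.64 and 10.20 in CPIP and then 9.71, 9.77 and 6.46 in CPIP+EA. Htr3b, a serotonin-gated channel subunit, gave 92.70, 78.36 and 72.73 FPKM in Sham and 48.78, 61.71 and 46.10 in CPIP+EA, and the potassium channel gene Kcnh7 gave 11.12, 11.86 and 14.69 against 7.76, 7.24 and 7.22 FPKM. Their limma adjusted p against Sham was 0.0452 for Mrgprx1, 0.0359 for Htr3b and 0.0194 for Kcnh7, and their differences to CPIP were -0.22, -0.12 and -0.00 on the log2 scale.

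What was present with treatment alone was asked of the direct comparison of CPIP+EA with CPIP. No gene was a DEG there (0% of 17187, smallest limma adjusted p = 0.113), and 738 of the 17187 had an unadjusted p under 0.05. The fitted difference between treated and untreated ganglia over the 83 DEGs ran from -0.37 to 0.81, with Sec14l3 apart at 2.85, and its standard error from 0.06 to 0.43. An unadjusted p under 0.05 was found for 14 of the 83. The higher ones were Sec14l3, Gal, Crisp1, Dyrk3, Csrp3, Nabp1, Fgf2, Hpd, Htra4, Dgcr6, Rhoq, Gadd45g and Vip, and the lower one was Amigo3. These genes were selected on the same CPIP+EA libraries, so their direction against CPIP is a description. Dyrk3, a kinase that dissolves stress granules, gave 1.73, 1.48 and 1.29 FPKM in Sham, 2.25, 2.70 and 2.16 in CPIP and then 3.24, 3.23 and 3.31 in CPIP+EA. Fgf2, a growth factor for neurons and glia, gave 2.18, 3.11 and 2.17 FPKM, then 3.96, 3.57 and 4.42, and then 5.63, 5.24 and 5.28 in the same order. The treated values of both genes lay above all others, and 4.84% of all genes had them above CPIP. With 1 library left out, Dyrk3 was a DEG against Sham in 0 of 9 fits and Fgf2 in 1. Both had a log2 difference to CPIP near 0.4, at 0.39 ± 0.12 and 0.40 ± 0.14 (SE, n = 3 per group, limma adjusted p = 0.996).

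Sec14l3, a lipid-binding protein of the Sec14 family, was the gene with the smallest p between treated and untreated ganglia. It measured 0.61, 0.65 and 0.93 FPKM in Sham, 0.22, 0.33 and 0.66 in CPIP and then 3.43, 6.33 and 9.08 in CPIP+EA. The treated values were above all 6 others, and the CPIP values overlapped Sham. Against Sham its log2 difference was 2.38 ± 0.31 (SE, n = 3 per group, limma adjusted p = 0.00671). Against CPIP it was 2.85 ± 0.31, with an unadjusted p of 6.57e-06 and an adjusted p of 0.113, so the difference to the untreated model did not pass the threshold over all genes. It passed that threshold without replicate 1 of CPIP+EA (adjusted p = 0.00781) and in none of the other fits that left out a library. Against Sham the DEG call was lost in 7 of those 9 fits, with adjusted p up to 0.0389, and also with no filter (0.0108) and with the 2 groups alone (0.0263), so that it held in 11 of 20 refits. Of the 8 other Sec14-like genes tested none was a DEG. Sec14l2, a relative that binds vitamin E, gave 16.02, 16.06 and 14.97 FPKM in Sham and 15.77, 16.06 and 14.59 in CPIP+EA, and Sec14l1 differed by -0.18.

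The next 4 genes by p between CPIP+EA and CPIP had a limma adjusted p of 0.474. H3f3c, an annotated copy of the histone H3.3 gene, measured 23.13, 10.56 and 12.67 FPKM in Sham, 15.73, 17.27 and 9.75 in CPIP and then 2.35, 0.98 and 3.40 in CPIP+EA. The treated values lay below all others, with a log2 difference of -2.57 ± 0.39 to Sham (limma adjusted p = 0.0147). As the genome holds near-identical histone H3.3 copies, reads may have been shared between them and this value is uncertain. LOC100911713 had a listed value of 0 in each CPIP library and in 2 of 3 Sham libraries (0.39 FPKM in the other). In CPIP+EA it had 3.14, 0.93 and 1.45 FPKM. It reached the filter of 0.1 FPKM through the CPIP+EA libraries alone, so its rank by p is no independent support. LOC108352882 (at most 0.24 FPKM without treatment and 0.64 to 0.73 with it) and LOC103692761 (0.67 to 0.72 FPKM in CPIP and 0.05 to 0.25 in CPIP+EA) were low in each library. Among the next genes by this p, singled out after their values were seen, were 2 that the liver makes. Albumin (Alb) gave 0.36, 0.12 and 0.21 FPKM in Sham, 0.21, 0.40 and 0.33 in CPIP and then 0.93, 1.44 and 0.85 in CPIP+EA. The fatty acid binding protein gene Fabp1 was listed at 0 in Sham, at 0.12, 0.13 and 0.0 FPKM in CPIP and at 0.49, 0.62 and 1.37 FPKM in CPIP+EA. Neither was a DEG, with limma adjusted p of 0.0212 and 0.0201 against Sham and 0.944 against CPIP for both. Fabp1 reached the filter of 0.1 FPKM through the CPIP+EA libraries alone, so its p values are no independent support.

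The clock genes, which run the daily cycle of transcription, included no DEG among 19 tested. Their summed level over all 20 listed genes was not tested, and abundant members weigh most in it. It was 215 to 240 FPKM in Sham, 209.5 to 220.1 in CPIP and 178 to 183 in CPIP+EA. The treated range lay below both others and replicate 3 did not stand apart in it. The hour of day at which each group's ganglia were taken is not given, so it cannot be told apart from treatment. Against Sham, 8 genes had an unadjusted limma p under 0.05 in the lower direction and 2 in the higher, and against CPIP 6 and 2. Over all 17187 genes these numbers were 968 and 1132 against Sham and 356 and 382 against CPIP. Complete separation from Sham was seen below for Ciart, Dbp, Nr1d1, Per3, Hlf, Per2 and Tef and above for Arntl and Nfil3, beside 7.32% and 8.87% of all genes.

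Dbp, a PAR-domain factor at the output of the clock, gave 41.59, 38.91 and 55.82 FPKM in Sham, 35.25, 39.32 and 41.44 in CPIP and then 28.06, 26.83 and 24.91 in CPIP+EA. Its log2 difference was -0.75 ± 0.13 to Sham and -0.53 ± 0.13 to CPIP (SE, n = 3 per group, limma adjusted p = 0.024 and 0.996, unadjusted p against CPIP = 0.00235). Tef, a related factor, gave 32.00, 30.89 and 33.40 FPKM in Sham and 26.87, 29.47 and 27.47 in CPIP+EA. The following were picked after the values were seen. Per3, a period gene of the feedback loop, gave 14.12, 15.59 and 15.16 FPKM in Sham, 13.61, 12.99 and 14.64 in CPIP and then 9.53, 10.53 and 11.31 in CPIP+EA. Arntl, the positive arm of the loop, went the other way, with 3.71, 3.81 and 3.74 FPKM in Sham, 3.71, 3.89 and 3.71 in CPIP and then 4.25, 4.63 and 5.98 in CPIP+EA.

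**Figure D5:**
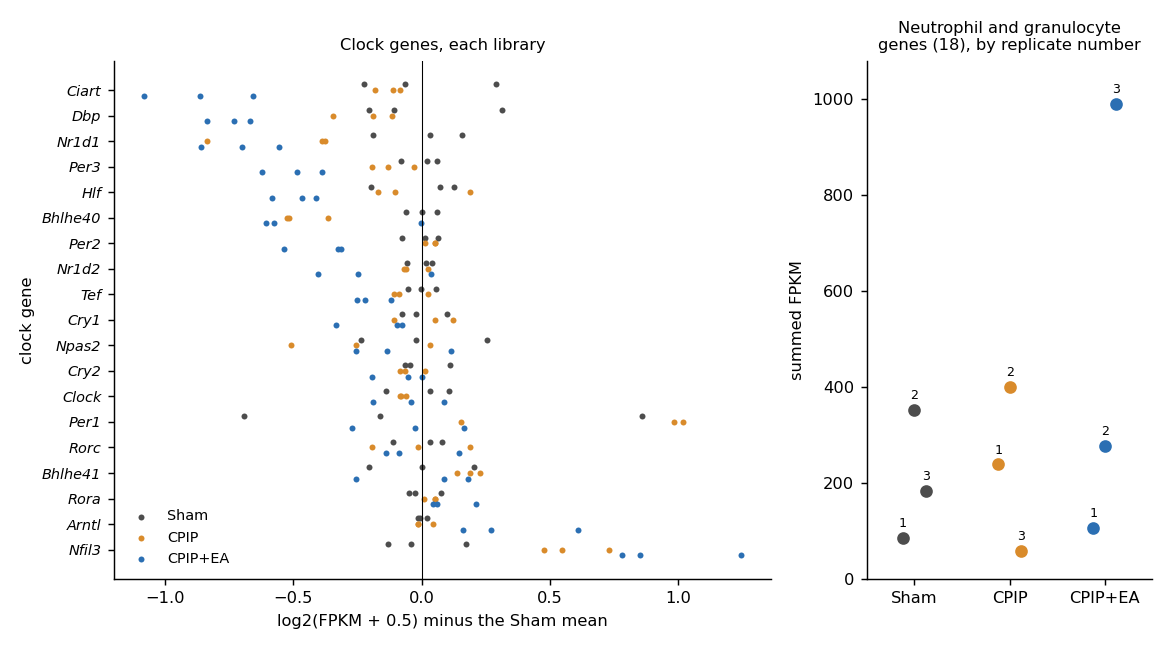
Left, log2(FPKM + 0.5) of 19 clock genes in each library relative to the Sham mean. Right, summed FPKM of the 19 listed neutrophil and granulocyte genes in each library with its replicate number. The panel title counts the 18 tested. The CPIP+EA points lie below Sham for 7 clock genes and above for 2, while on the right only replicate 3 of CPIP+EA, at 990 FPKM, leaves the range of the other libraries.

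The threshold itself fell within a continuous range. The DEGs nearest to it by adjusted p were Cmtm2a, Htra4 and Fgf2, which shared the same value. Cmtm2a, a gene of the chemokine-like MARVEL family, had 0.13, 0.19 and 0.26 FPKM in Sham and 1.38, 0.88 and 0.83 in CPIP+EA (limma adjusted p = 0.00852). The nearest gene outside by adjusted p was Arl4a, a small GTPase, with a log2 difference of 0.57 ± 0.08 (SE, n = 3 per group, limma adjusted p = 0.0101), which was also under 1.5-fold. The nearest that missed on adjusted p alone was PCOLCE2, a procollagen-processing enhancer, with 5.67, 4.95 and 6.38 FPKM in Sham and 9.74, 9.70 and 10.76 in CPIP+EA (limma adjusted p = 0.0107).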

How the data were processed

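The right L4-6 DRGs of 3 Sham (labelled Con), 3 CPIP and 3 CPIP+EA rats were sequenced, 1 library per column of the table. Read filtering by the authors used SOAPnuke, and the deposited values are FPKM per gene and library with 2 decimals. The aligner, counter, genome build and annotation are not given in the sources used here. The table also holds log2 ratios, P-values and Q-values of the authors' own comparisons, which were not used. Of 20413 gene identifiers, 18746 were matched to the RefSeq table of GRCr8, which was used for promoter sequences.

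Genes with a mean of at least 0.1 FPKM over the 9 libraries (17187) entered a limma fit (version 3.58.1, R 4.3.3) on log2(FPKM + 0.5) (all 9 libraries in a single fit, trended moderated variance, two-sided, Benjamini-Hochberg adjustment over all 17187). DEGs had an adjusted p under 0.01 and at least 1.5-fold. Errors are standard errors of the fitted difference with n = 3 libraries per group. Other steps used Python 3.11.15 with pandas 2.3.3, numpy 2.4.6 and matplotlib 3.10.9, and the fit was tested on simulated data.

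The members, 23 gene lists, rules and tests were chosen with earlier results of these data known. Named were 6 given marker genes, the 15 DEGs with the largest rise and up to 10 with the largest fall, the 5 genes with the smallest p between CPIP+EA and CPIP among DEGs and among all genes, all DEGs of the lists with their 2 most abundant members, and the genes next to the threshold. Further genes were chosen after their values were seen. Some genes that the rule names are not reported here. The median log2 difference of the complement and acute phase list was 0.11 over 23 genes. Alternatives were the pseudocount (0.1 and 1), the filter (none, or a mean of at least 1 FPKM), quantile normalization, a TPM scale, median centring, no trend, a robust trend, a replicate block, a fit of the compared groups alone, an adjusted p under 0.05, a 2-fold cut-off, and fits that dropped 1 library each.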

Additional observations from a re-analysis of the deposited data

How the results depend on the processing

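The 83 DEGs between CPIP+EA and Sham kept their sign in every alternative in which they were tested, and 34 of them were DEGs in all 9 fits that each left out 1 library. The number of DEGs moved more than the direction. It was 46 with only the 2 groups compared, 163 at an adjusted p under 0.05 (of which 16 were lower) and 52 at 2-fold, and between 70 and 89 with another pseudocount, filter, normalization or variance trend. Leaving out 1 library gave 35 to 82 DEGs, the lowest without replicate 2 of CPIP+EA, with 46 to 49 without 1 Sham library and 54 without replicate 2 of CPIP. For CPIP against Sham the main number was 61, it was 102 at an adjusted p under 0.05, and leaving out 1 library gave 28 to 61. CPIP+EA against CPIP had 0 DEGs in the main comparison, 1 with only the 2 groups compared, and 0 to 2 with 1 library left out, the 2 without replicate 1 of CPIP+EA. The cause of these shifts was not tested.

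The labels state no pairing of libraries by replicate number. The deviations of same-numbered libraries correlated between -0.236 and 0.297, and those of differently numbered ones between -0.223 and 0.28. Deviations from a mean of 3 libraries cannot show that a pairing is absent. With the replicate block there were 42 DEGs for CPIP+EA against Sham, 41 of them among the 83, and 26 for CPIP against Sham. Among single genes and lists, 2840 values kept their side of the threshold or moved by less than the spread, 149 lost a call, 2 gained one, 119 moved and 0 reversed. FPKM carry no counts, so the 3 libraries per group set the precision, and small changes of low genes were not detectable.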
